A study of Mus musculus with 12 samples.

Results

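The 10 genes described here encode the enzymes that remove superoxide and peroxides from liver cells, and were taken by name out of 53465 gene rows; no measured value enters the rule, but the list was drawn up with earlier results of these data known. They were the superoxide dismutases Sod1 and Sod2, the glutathione peroxidases Gpx1 and Gpx4, and the peroxiredoxins Prdx1, Prdx2, Prdx3, Prdx4, Prdx5 and Prdx6. RNA was measured as read counts per gene in whole livers of C57BL/6N mice, a standard inbred strain, which the study's methods give as male. The mice were 3 months (young), 12 months (middle-aged) or 18 months (aged) old, with 4 livers per age and each liver from a different animal, so replicate numbers name animals and do not join them across ages. No allele or treatment separated the groups, and all comparisons are therefore between ages. The livers were not sorted into cell types, so fewer cells of a type and less RNA per cell cannot be told apart in any value below.

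Respiration and several oxidases leak superoxide, which superoxide dismutases convert to hydrogen peroxide. Sod1, the copper and zinc enzyme, works in the cytosol and between the mitochondrial membranes, and Sod2, the manganese enzyme, in the mitochondrial matrix. Hydrogen peroxide is then reduced to water by catalase in peroxisomes, by glutathione peroxidases at the expense of glutathione, and by peroxiredoxins, most of which draw their electrons from thioredoxin. Hepatocytes, the main cells of the liver, are rich in all of these enzymes because fatty acid oxidation and drug metabolism in them produce peroxides steadily.

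The catalytic residue separates the peroxide-reducing families and can be read from the coding sequence. Glutathione peroxidases carry selenocysteine, which is specified by a TGA codon that would otherwise stop translation, whereas peroxiredoxins carry a peroxidatic cysteine in a conserved motif. The 27 bases around that codon are given 5′ to 3′, because they show what the members share and where they differ; the capitals mark the catalytic codon. They were read from the GENCODE M21 transcripts on GRCm38.
Gpx1, codon 47: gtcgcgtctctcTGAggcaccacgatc
Gpx4, codon 73: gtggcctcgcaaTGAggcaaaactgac
Prdx1, codon 52: tttacttttgtgTGTcccacggagatc
Prdx2, codon 51: ttcacttttgttTGCcccacggagatc
Prdx3, codon 109: ttcacatttgtgTGTcctacagaaatt
Prdx4, codon 127: ttcacctttgtgTGTccaactgaaatc
Prdx5, codon 96: tttacacctggcTGTtctaagacccac
Prdx6, codon 47: tttaccccagtgTGCaccacagaactt
The 4 typical peroxiredoxins, Prdx1 to Prdx4, are alike around the codon. Over the aligned bases of the coding sequences their pairs were 65.6% (Prdx3 and Prdx4) to 74.3% (Prdx2 and Prdx4) identical. Prdx5, which uses a different arrangement of cysteines, was 58.6% (Prdx1) to 67.4% (Prdx3) identical to these 4, and Prdx6 62.0% (Prdx2) to 65.1% (Prdx4). The values of Prdx5 thus reached into those of the typical pairs, and those of Prdx6 did not. The same measure gave 65.2% for Sod1 and Sod2. It leaves out bases that face a gap, so it does not tell how alike 2 whole sequences are.

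Sequence likeness to other genes limits how exactly reads can be assigned. For Gpx4, 68.9% of all 50-base windows of its main transcript also occur in a transcript of another gene, all of them in the pseudogene Gpx4-ps2, whose own row held 35 to 75 counts per liver. The shares were 29.5% for Prdx1, 23.1% for Sod1, 9.65% for Prdx2 and at most 1.43% for the other 6 members. Prdx5 shares 409 exonic bases, 19.1% of its exons, with Trmt112 on the opposite strand, and Prdx2 shares 173 with Junb and 177 with Rnaseh2a, also on the opposite strand. How such reads were counted is not given in the sources used here, so the levels of Gpx4, Prdx1, Sod1, Prdx2 and Prdx5 are uncertain to that extent.

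RefSeq promoter entries on GRCm38.p6 were found for 9 of the 10 members, all but Prdx6. The 250 bases before each start site were searched on both strands for TGACNNNGC, the core of the antioxidant response element through which the transcription factor Nrf2 acts. It occurs in 10.2% of 32544 promoter entries and was present for Prdx1 and Sod1 among the members. The 30 bases around it are shown because they are the stretch of the Prdx1 promoter that bears on this pathway; both lie on the plus strand and before the annotated exons, and the capitals mark the core, which reads on the other strand.
Prdx1, chr4:116685456-116685485: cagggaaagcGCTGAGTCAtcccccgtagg
Sod1, chr16:90220696-90220725: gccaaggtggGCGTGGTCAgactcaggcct
The core begins 133 bases before the start of Prdx1 and 56 bases before that of Sod1. A match of letters is a description and not a sign that a factor bound there.

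The libraries held 8124312 to 10527159 counts in genes, and the lowest count of any member in any liver was 541. Mitochondrially encoded genes took 19.2% of counts in young replicate 2 and 5.48 to 10.7% in the other 11 livers. The 7 hepatocyte markers were high in every liver, with a summed normalised count of at least 748150. Replicates 1 and 2 of each age and replicates 3 and 4 of each age carried different profiles of synthetic spike-in RNA, so both sets of livers were also compared on their own. Any 2 livers of an age differed by more than sampling noise, and the p-values measure the spread between libraries. Each liver gave a single library, so differences between animals and differences in preparation cannot be told apart in that spread.

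Per length, the members covered a wide range. Levels are given as TPM, that is read counts divided by the length of all annotated exons of the gene and scaled to the same total in every liver. Gpx1, the main cytosolic glutathione peroxidase, led with a mean of 3346 over the 12 livers (range 2748 to 4179), and Sod2 was last with 40.3 (28.5 to 46.2), 83.1 times lower. In between came Prdx1 at 733, Sod1 at 473, Gpx4 at 360, Prdx5 at 336, Prdx6 at 250, Prdx3 at 187, Prdx2 at 96.0 and Prdx4 at 79.2. The ranges of Gpx1, Prdx1 and Sod1 did not overlap with each other, those of Prdx3 and Prdx2 did not overlap, and neither did those of Prdx4 and Sod2. Gpx4 exceeded Prdx5 in 9 of 12 livers and Prdx2 exceeded Prdx4 in 11 of 12, and the ranges of both pairs overlapped. The other neighbours, Sod1 and Gpx4, Prdx5 and Prdx6, and Prdx6 and Prdx3, also overlapped in range, although the first of each pair was higher in all 12 livers. Catalase, the peroxisomal enzyme for the same substrate, lay at 2442, between Gpx1 and Prdx1.

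The order depended on the length used. With the median length of coding transcripts in place of all exons, a choice made after the data were seen, Sod1 stood at 2116 and passed Prdx1 at 1017, because its annotated exons span 3970 bases and its coding transcript 641. Prdx5 stood at 688 and Prdx6 at 518, both then above Gpx4 at 468, and Prdx3 stood at 135 beside Prdx2 at 137. Gpx1 stayed first at 4432 and Sod2 last at 49.7 under both lengths.

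**Figure D1:**
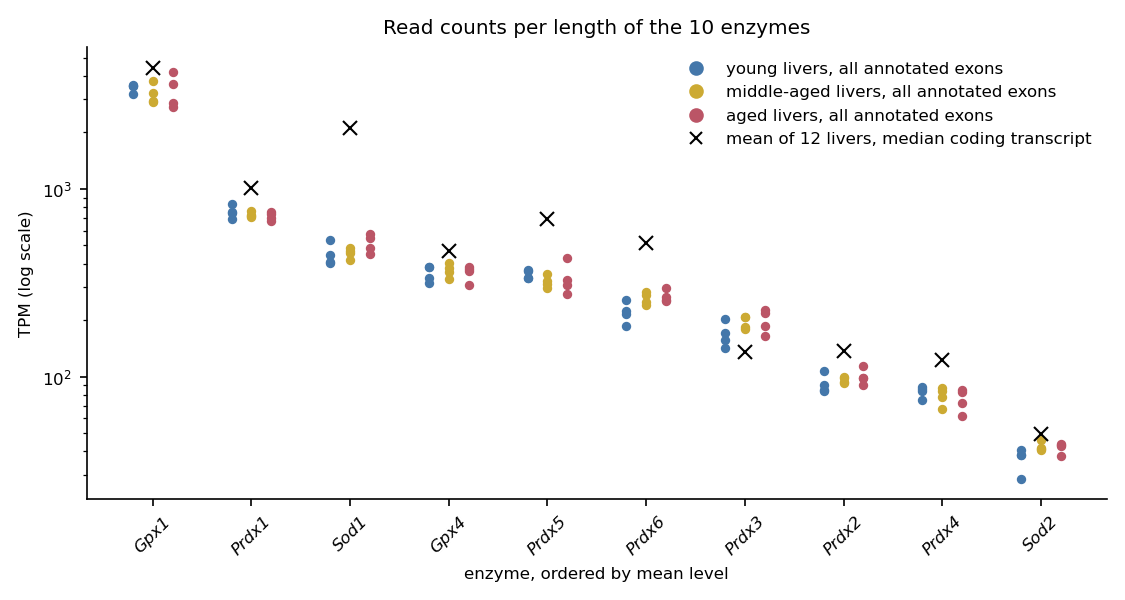
TPM (log axis) of each enzyme in the 12 livers, coloured by age, with all annotated exons as the length; crosses give the mean of the 12 livers with the median coding transcript as the length. Gpx1 is highest and Sod2 lowest under both lengths, and the cross of Sod1 at 2116 stands far above its points at 401 to 576.

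Sod1 and Sod2, the enzymes that take superoxide, did not pass the test between any ages. Values below are read counts normalised by library size (DESeq2 size factors), which compare livers for the same gene. Sod1 (ENSMUSG00000022982, chr16:90220754-90226329) had 7586, 9314, 8234 and 9252 in the young livers, 7688, 7685, 6690 and 7462 in the middle-aged and 10062, 7122, 7052 and 8828 in the aged. The highest of the 12 values was that of aged replicate 1, and the 3 ages overlapped. Its log2 fold change was -0.06 for aged against young (SE 0.12, DESeq2 adjusted p = 0.892), and the 95% interval ran from an 18.5% decrease to a 13.4% increase. For middle-aged against young it was -0.22 (SE 0.12, adjusted p = 0.276).

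Sod2 (ENSMUSG00000006818, chr17:13006846-13040063) varied least of the members in the aged livers, with a coefficient of variation of 4.08%. Its normalised counts lay between 1665 and 1907 in young, 1649 and 1844 in middle-aged and 1598 and 1751 in aged livers. The log2 fold changes were -0.06 for aged against young (adjusted p = 0.727) and -0.03 for middle-aged against young (adjusted p = 0.874). The 95% interval for aged against young spanned a decrease of 12.8% to an increase of 4.94%.

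Gpx1 and Gpx4 were lower on average in older livers, but neither passed the test. Gpx1 (ENSMUSG00000063856, chr9:108338903-108340343) had 24005, 26977, 23833 and 22225 normalised counts in the young livers and 21723, 17533, 18908 and 17202 in the middle-aged. All 4 middle-aged values lay under the lowest young value. In the aged livers it had 26511, 20760, 15203 and 16168, so aged replicate 1 lay within the young range and the other 3 under it. The log2 fold change was -0.36 for middle-aged against young (SE 0.16, adjusted p = 0.141) and -0.30 for aged against young (SE 0.16, adjusted p = 0.324).

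Gpx4 (ENSMUSG00000075706, chr10:80047166-80056439), which reduces peroxidised phospholipids and so protects membranes from ferroptosis, had 2679, 3181, 3103 and 2899 in young and 2899, 2096, 2294 and 2634 in aged livers. Aged replicate 1 again lay within the young range and the other 3 values under it. The middle-aged livers had 2617, 2569, 2311 and 2851, of which 3 lay under the lowest young value. The log2 fold changes were -0.26 (SE 0.11, adjusted p = 0.193) for aged and -0.20 (SE 0.11, adjusted p = 0.287) for middle-aged against young.

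Prdx1, the most abundant peroxiredoxin of the cytosol per length here and a reductant of hydrogen peroxide through thioredoxin, was the only member that passed the test, and it was lower at both later ages. Its gene (ENSMUSG00000028691) lies at chr4:116685544-116700822. The young livers had 10630, 12361, 10544 and 10993 normalised counts (mean 11132 ± 842, SD, n = 4). The middle-aged livers had 9286, 9044, 8879 and 8844 (9013 ± 202, n = 4) and the aged 10045, 8189, 7830 and 9154 (8805 ± 998, n = 4). Every middle-aged and every aged value lay under the lowest young value, while middle-aged and aged livers overlapped.

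The log2 fold change of Prdx1 was -0.34 for aged against young (SE 0.09, DESeq2 adjusted p = 0.0066), a decrease of 20.9%, and its 95% interval ran from -0.51 to -0.17. For middle-aged against young it was -0.30 (SE 0.09, adjusted p = 0.014), a decrease of 19.0%, and across the 3 ages the likelihood ratio test gave an adjusted p of 0.0035. Aged and middle-aged livers differed by -0.03 (SE 0.09, adjusted p = 0.963), with a 95% interval from a 13.2% decrease to a 9.91% increase. Over 25 other analyses the fold change stayed negative, from -0.41 to -0.22 for aged and from -0.33 to -0.19 for middle-aged against young.

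The call on Prdx1 was less firm than its direction. In aged against young it was made in 20 of the 25 other analyses, among them limma (adjusted p = 0.042), and in middle-aged against young in 15, again with limma (0.041). The edgeR quasi-likelihood test did not make it, with adjusted p-values of 0.0996 and 0.105; it called 1.42% and 2.31% of all genes in these comparisons and none of the members, of which 4 had an unadjusted p under 0.05 in each. Without young replicate 2, the liver with the highest Prdx1 and the highest mitochondrial share, the adjusted p was 0.051 for aged and 0.092 for middle-aged against young, and without aged replicate 2 it was 0.054 for aged against young. The middle-aged call was also lost without middle-aged replicates 2, 3 or 4 (adjusted p = 0.054, 0.070 and 0.058). In a fit to only the young and aged livers, the aged call was lost (DESeq2 adjusted p = 0.072).

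Within the 2 spike-in sets Prdx1 had like fitted values. The log2 fold change for aged against young was -0.33 within replicates 1 and 2 (adjusted p = 0.747) and -0.35 within replicates 3 and 4 (adjusted p = 0.046). For middle-aged against young it was -0.33 (adjusted p = 0.604) and -0.29 (adjusted p = 0.137). Each of these fits rested on 2 livers per age.

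The size of the Prdx1 difference depended on the scaling. With total gene counts in place of DESeq2 size factors, the median gene itself shifted by 0.12 between young livers and each later age, and Prdx1 stood at -0.22 for aged (adjusted p = 0.044) and -0.19 for middle-aged against young (adjusted p = 0.078). On the TPM scale, the young livers had 749, 694, 740 and 828, the middle-aged 765, 718, 723 and 705 and the aged 750, 678, 703 and 737, so the ages overlapped. With mitochondrially encoded genes left out of that scale they did not: the young livers lay between 895 and 994, the middle-aged between 829 and 871 and the aged between 770 and 855. With offsets for gene length and GC content, added after the data were seen, the fold change was -0.31 for aged (adjusted p = 0.0061) and -0.23 for middle-aged against young (adjusted p = 0.057).

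Most markers of red blood cells, which are themselves rich in peroxiredoxins, were lower in aged than in young livers. The summed normalised count of 8 erythroid markers was 22983 to 86402 in young, 12830 to 49886 in middle-aged and 9677 to 21242 in aged livers, highest in young replicate 2. In aged against young 2 of the 7 markers tested, Hbb-bs and Alas2, were called lower, and 6 of the 8 had an unadjusted p under 0.05 (DESeq2). All 6 markers averaging 10 or more normalised counts were fitted lower, with a median log2 fold change of -1.75. For 5 of the 8, every aged value lay under the young range, as for 3.69% of all genes tested. In middle-aged against young none of the 6 tested was called and none had an unadjusted p under 0.05 (DESeq2). There 5 of the 6 markers averaging 10 or more normalised counts were fitted lower, with a median log2 fold change of -0.53. Hba-a1, Hbb-bs and the other globins were present in every liver, and Epb42 was at 0 in some. The part of red blood cells in the Prdx1 result was not tested.

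None of the other peroxiredoxins passed the test in the fit to all 12 livers. Prdx2 (ENSMUSG00000005161, chr8:84969587-84974834), the second cytosolic enzyme and abundant in red blood cells, had 1213, 1499, 1290 and 1431 in young, 1211, 1175, 1137 and 1231 in middle-aged and 1536, 1094, 1098 and 1230 in aged livers. Aged replicate 1 was the highest of all 12. Its log2 fold changes were -0.13 (adjusted p = 0.645) for aged and -0.19 (adjusted p = 0.330) for middle-aged against young.

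Prdx3 (ENSMUSG00000024997, chr19:60864051-60874556), the enzyme of the mitochondrial matrix, lay between 1088 and 1315 in young, 1071 and 1276 in middle-aged and 1072 and 1315 in aged livers. Its log2 fold change was -0.03 for aged against young (adjusted p = 0.932), with a 95% interval from a 14.0% decrease to an 11.7% increase, and -0.04 for middle-aged against young (adjusted p = 0.877). The matrix enzymes Sod2 and Prdx3 thus had overlapping values at all 3 ages.

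Prdx4 (ENSMUSG00000025289, chrX:155323918-155340754), the peroxiredoxin of the endoplasmic reticulum, had the largest fitted decrease of the 10 members in aged against young. Its normalised counts were 866, 926, 848 and 767 in young, 732, 681, 709 and 584 in middle-aged and 764, 709, 473 and 625 in aged livers. All later values lay under the lowest young value, the closest being 764 against 767. The log2 fold change was -0.41 for aged (SE 0.14, adjusted p = 0.079) and -0.33 for middle-aged against young (SE 0.14, adjusted p = 0.132), and neither passed the test. In aged against young, Prdx4 passed in 2 of the 25 other analyses: with the spike-in set as a covariate (DESeq2 adjusted p = 0.018) and without aged replicate 1 (0.0074). It did not pass with edgeR (adjusted p = 0.142) or limma (0.068).

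Prdx5 (ENSMUSG00000024953, chr19:6906697-6910106), found in mitochondria, peroxisomes and cytosol, had 3339, 4186, 3664 and 3462 in young and 2997, 2758, 2789 and 2628 in middle-aged livers. The middle-aged values all lay under the young ones, with a log2 fold change of -0.39 (SE 0.16, adjusted p = 0.116). The aged livers had 4051, 2598, 2147 and 2858, the first of them among the highest of the 12 and the other 3 under the young range. For aged against young the log2 fold change was -0.33 (SE 0.16, adjusted p = 0.272).

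Prdx6 (ENSMUSG00000026701, chr1:161240112-161251219), which uses glutathione and also repairs oxidised phospholipids, did not pass the test between any ages. It lay between 4864 and 5393 in young, 4652 and 5420 in middle-aged and 4699 and 6245 in aged livers, with aged replicate 1 the highest. The log2 fold changes were 0.02 (adjusted p = 0.954) and -0.00 (adjusted p = 0.988) against young. The 95% interval for aged against young spanned a decrease of 11.1% to an increase of 15.8%.

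**Figure D2:**
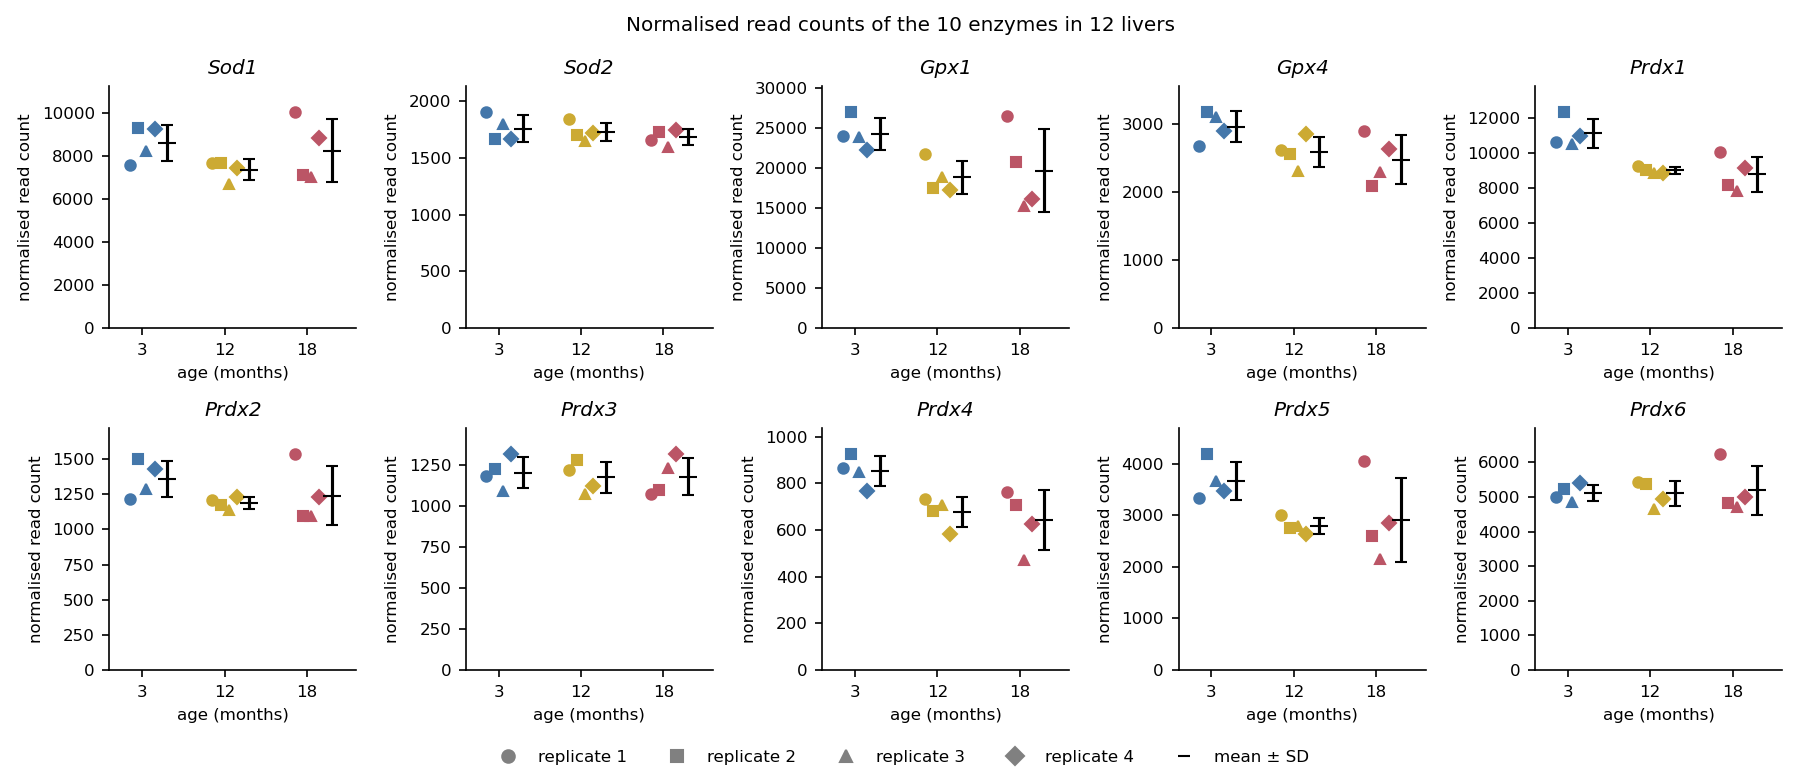
Normalised read counts (axes from 0) of each enzyme against age in months; symbols mark the replicate number, and bars give the mean ± SD of 4 livers. For Prdx1 all 8 later values lie under the lowest young value of 10544, and aged replicate 1 (circles at 18 months) is above the other aged livers for 8 of the 10 enzymes.

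Across the 10 members, 1 was called lower and none higher in aged against young and in middle-aged against young, where 3.58% and 6.41% of all genes tested were called in either direction and 1.71% and 2.9% were called lower. Across the 3 ages 1 of 10 was called, against 6.96% of genes. The fitted fold change was negative for 9 of 10 in aged and 10 of 10 in middle-aged against young, with medians of -0.19 and -0.21; over all genes averaging 10 or more normalised counts the medians were 0.01 and 0.01. Of those genes, 48.6% and 48.7% were fitted lower. With total gene counts as the scale, 6 and 7 of the 10 were negative, with medians of -0.08 and -0.10. On that scale the medians over all genes averaging 10 or more counts were 0.12 and 0.12. The ranges of young and later livers did not overlap, with the later lower, for 4 members in middle-aged livers (Gpx1, Prdx1, Prdx4 and Prdx5) and for 2 in aged livers (Prdx1 and Prdx4), where 7.96% and 3.69% of all genes tested behaved so. These counts depended on the scale: on the TPM scale all 10 members overlapped at both ages. With mitochondrially encoded genes left out and all exons as the length, Prdx1 and Prdx5 remained separate in middle-aged livers and Prdx1 in aged ones. With the median coding transcript as the length instead, Prdx4 was also separate in aged livers (102.8 to 140.8 against 141.1 to 160.0 in young). The share of all genes that separated is not given for the TPM scales, so these counts have no reference there.

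Between aged and middle-aged livers DESeq2 called none of the 10 and none had an unadjusted p under 0.05, as was also the case with edgeR and limma. In that comparison 1.14% of all genes tested were called. The fitted changes ran from -0.08 for Prdx4 to 0.16 for Sod1. Both comparisons with young livers share the same 4 young livers, so the likeness of their values is not a second observation.

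**Figure D3:**
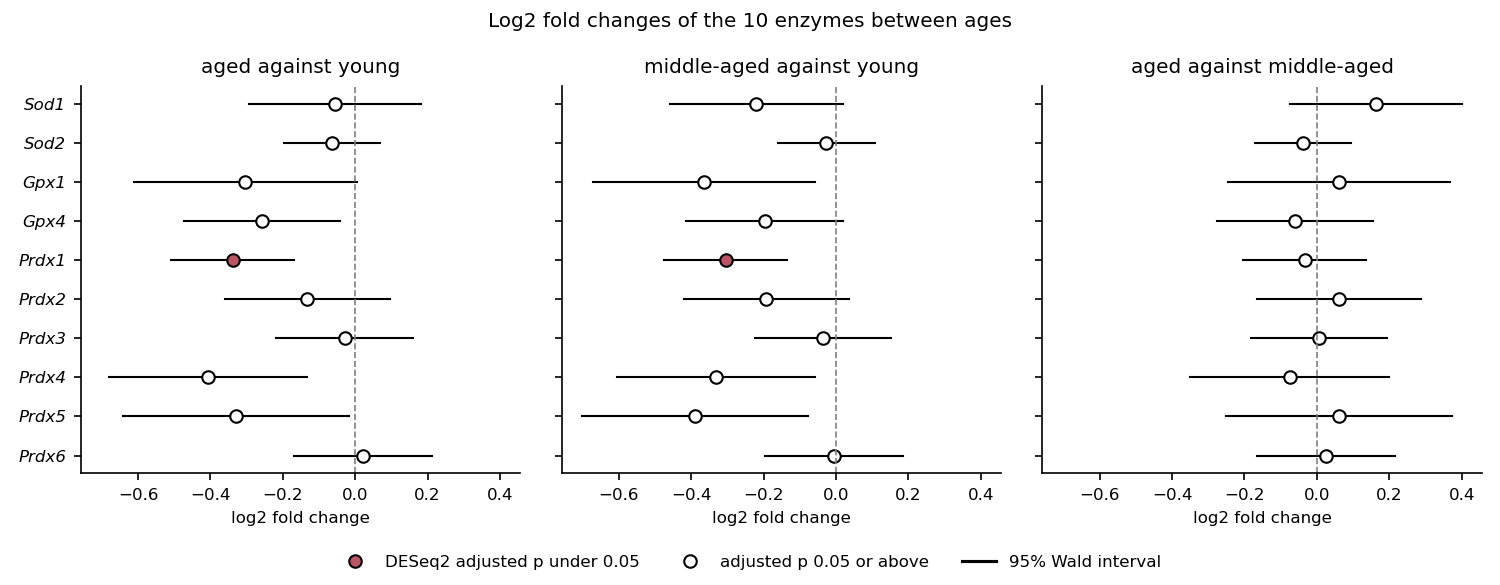
Log2 fold change of each enzyme for the 3 pairs of ages; lines are 95% Wald intervals, not adjusted for the number of genes, and filled points have an adjusted p under 0.05. Prdx1 is filled at -0.34 and -0.30 against young, and in aged against middle-aged every interval includes 0.

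The number of members called in aged against young depended on which aged livers were included, most of all on aged replicate 1. That liver had more than every other aged liver for 8 of the 10 members, all but Sod2 and Prdx3, and exceeded the mean of the other 3 aged livers by 59.9% for Prdx5, 52.6% for Gpx1, 34.7% for Prdx2 and 31.2% for Sod1. Without it 6 members were called lower: Prdx5 (log2 fold change -0.53), Prdx4 (-0.50), Gpx1 (-0.48), Prdx1 (-0.41), Gpx4 (-0.34) and Prdx2 (-0.25, adjusted p = 0.0495). The share of all genes called then also rose, to 10.5%. Other aged livers moved the values the other way: without aged replicate 3 the log2 fold change was -0.20 for Gpx1 and -0.21 for Prdx5, neither called, and without aged replicate 2 no member was called, with 1.77% and 2.61% of all genes called. Among the markers, aged replicate 1 had the highest sums of Kupffer cell (4655 against 2896 to 3583), erythroid (21242 against 9677 to 15146) and neutrophil genes (86.3 against 11.4 to 14.3) of the aged livers and the lowest of hepatocyte genes (796370 against 875823 to 1015690). Its stellate, sinusoidal, biliary and lymphocyte sums lay between those of other aged livers. Of the 5 neutrophil genes, 2 were detected in every liver and 0 were tested. Abundant genes weigh most in a sum: the median hepatocyte sum was 790745 in young and 891589 in aged livers, yet 5 of its 7 markers were fitted lower in aged livers. The part of these cells in its values was not tested.

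The 2 spike-in sets gave different counts, and aged replicate 1 belongs to the set of replicates 1 and 2. Within replicates 1 and 2 DESeq2 called no member in aged against young, none had an unadjusted p under 0.05, and 1.24% of all genes were called. Within replicates 3 and 4, Gpx1 (-0.56), Prdx5 (-0.51) and Prdx1 (-0.35) were called, where 4.22% of all genes were called. In middle-aged against young, a fit to only those 8 livers called Gpx1, Prdx1, Prdx4 and Prdx5, where 11.2% of all genes were called. In aged against young, a fit to only the 8 livers compared called no member, and 2.05% of all genes were called.

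**Figure D4:**
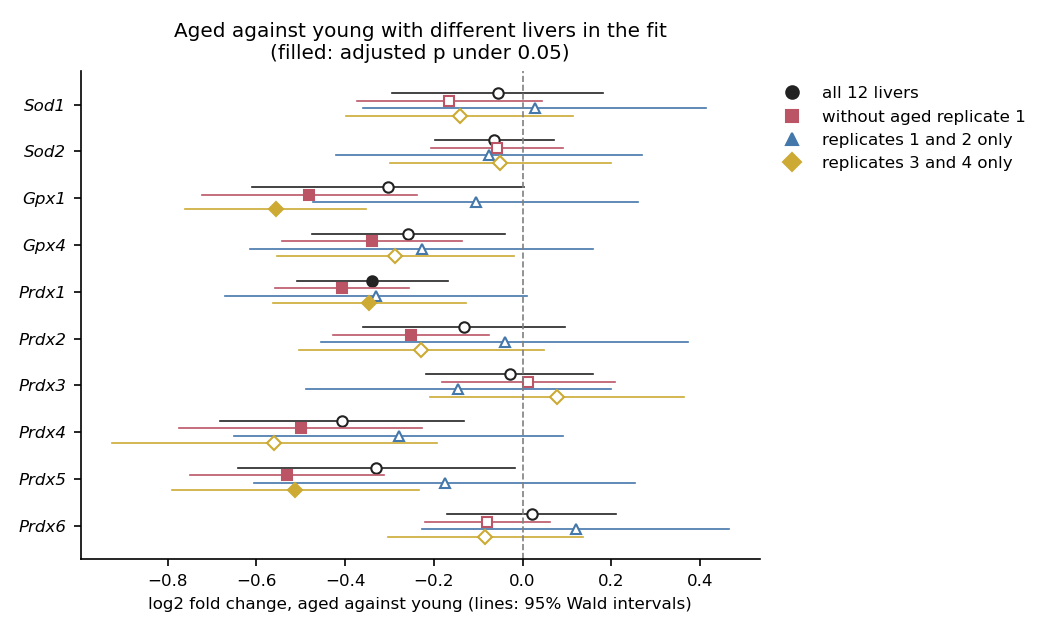
Log2 fold change of each enzyme for aged against young with all 12 livers, without aged replicate 1, and within each spike-in set; lines are 95% Wald intervals and filled symbols have an adjusted p under 0.05. Without aged replicate 1 the 6 filled squares run from -0.53 for Prdx5 to -0.25 for Prdx2, and Sod1, Sod2, Prdx3 and Prdx6 have unfilled symbols in all 4 fits.

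Most of the members varied together from liver to liver. Over the 12 livers, the Pearson correlation of log2 normalised counts was 0.93 between Sod1 and Prdx2, 0.92 between Prdx1 and Prdx5 and 0.90 between Gpx1 and Prdx5. With the mean of each age removed it was 0.94 for Sod1 and Prdx2 and 0.92 for Prdx1 and Prdx5. Sod2 and Prdx3, the pair of the mitochondrial matrix, followed the others less: their correlation with each other was -0.00, and that of Prdx3 with Gpx1 was -0.31. Their highest values were 0.45 for Sod2 with Prdx4 and 0.25 for Prdx3 with Sod1. Pairs among the other members also reached down to 0.33, for Prdx4 and Prdx6. With the mean of each age removed they reached down to 0.15, for Gpx4 and Prdx4. That lay under the highest values of Sod2 (0.32, with Prdx4) and of Prdx3 (0.22, with Sod1). The points share library depth and scaling, and these values are descriptions.

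The genes with the pattern most like Prdx1 over the 12 livers, among 7145 others averaging 100 or more normalised counts, were Cox6b1, a subunit of cytochrome c oxidase (r = 0.98), Mrpl57 (0.98), of the mitochondrial ribosome, and Rplp1 (0.96), of the cytosolic ribosome. For Prdx4 they were the secreted serum proteins Serpina3k (0.96) and Orm1 (0.95) and the urinary protein Mup12 (0.96), whose counts are uncertain because its family members are nearly identical. For Prdx5 they were Ifi35 (0.98), Sec61b (0.98), a channel subunit of the endoplasmic reticulum, and Lta4h (0.97).

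The enzymes depend on genes that supply electrons, selenium and metals, and act on peroxide that other enzymes make; 68 such genes in 6 lists were followed alongside. Of these, 5 were called in aged against young (4 higher, 1 lower of 62 tested), 6 in middle-aged against young (3 higher, 3 lower) and 2 in aged against middle-aged (1 higher, 1 lower of 60 tested). Over all genes tested, 3.58%, 6.41% and 1.14% were called in these comparisons. All 13 of these calls kept their direction within both spike-in sets. The calls were selected on the same livers that form these sets, so the kept direction is not a second observation. The counts moved with single livers, and so did the share of all genes called, given in brackets. In aged against young 1 was called without young replicates 2 or 3 (1.92 and 2.43%) or without aged replicates 3 or 4 (1.77 and 2.6%). The count was 3 without middle-aged replicates 2 or 3 (3.1 and 3.14%) and 15 without aged replicate 1 (10.5%). In middle-aged against young 10 were called without young replicate 1 (8.72%) and 3 without middle-aged replicates 2 or 3 (4.05 and 3.5%).

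Of the 20 sources of hydrogen peroxide, 4 were called in at least 1 pair of ages: Maoa, Maob, Hao1 and Uox. Maoa, a monoamine oxidase of the outer mitochondrial membrane, rose from 42 to 57 normalised counts in young livers to 97 to 115 in middle-aged and 77 to 137 in aged ones, with a log2 fold change of 1.14 at both later ages (adjusted p = 3.1e-05 and 4.6e-05). Its partner Maob rose in aged against young by 0.38 (adjusted p = 0.012). Hao1, the peroxisomal glycolate oxidase, fell from 3158 to 3649 in young to 2375 to 2860 in middle-aged (log2 fold change -0.45, adjusted p = 0.00028) and 2526 to 3079 in aged livers (-0.31, adjusted p = 0.037). The first of these calls on Hao1 was made in 24 of 25 other analyses and the second in 8. Uox, urate oxidase, rose in middle-aged against young (0.39, adjusted p = 0.00028) and fell in aged against middle-aged livers (-0.37, adjusted p = 0.0026). Its counts were 20707 to 24106, 26499 to 30882 and 20802 to 24897 at the 3 ages, so the middle-aged livers stood above both others. The median over the 18 sources with at least 10 counts was 0.01 in aged against young, as over all genes.

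In the thioredoxin system, which feeds most peroxiredoxins, 1 of 10 genes was called at any age. Txn1, thioredoxin itself, had 1768 to 2434 in young and 1502 to 1545 in middle-aged livers (log2 fold change -0.37, adjusted p = 0.029) and 1456 to 1887 in aged ones (-0.28, adjusted p = 0.176). Txnip, its inhibitor, had log2 fold changes of 0.07 and 0.29 and did not pass (adjusted p = 0.893 and 0.260). Txnip shares 19.4% of its exonic bases with an antisense gene, whose reads may be mixed with its own. In the glutathione system 1 of 8 tested genes was called: Gclm, the modifier subunit of the enzyme that limits glutathione synthesis, rose from 1947 to 2037 in young to 2254 to 2394 in middle-aged livers (0.22, adjusted p = 0.0067). In aged livers it had 2095 to 2412 (0.16, adjusted p = 0.122).

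Of 8 genes of NADPH supply, Nnt, which makes NADPH in the mitochondrial matrix, rose in aged against young livers from 688 to 860 to 920 to 1084 (0.32, adjusted p = 0.025). Among 12 genes of selenium and metal supply, Atox1, a copper chaperone, fell in middle-aged against young (-0.37, adjusted p = 0.041) and had a like value in aged livers that did not pass (-0.36, adjusted p = 0.070); its call was made in 8 of 25 other analyses. Slc30a10, a manganese exporter, rose in aged against middle-aged livers from 242 to 338 to 393 to 635 (0.89, adjusted p = 0.00031). Ccs, which loads copper into Sod1, did not pass (-0.17, adjusted p = 0.643), and without aged replicate 1 its adjusted p was 0.0068.

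Among the other superoxide and peroxide enzymes, Cat had 23053 to 29542, 25886 to 29303 and 25770 to 28891 normalised counts at the 3 ages and did not pass (0.05 in aged against young, adjusted p = 0.836). Sod3, the extracellular dismutase, had 159 to 254 in young and 223 to 304 in aged livers (0.45, adjusted p = 0.121). Gpx6 was called higher in aged livers at the edge of the threshold (1.45, adjusted p = 0.0496), from 12 to 32 counts in young to 21 to 80 in aged livers, and in 10 of 25 other analyses. By edgeR 1, 2 and 0 companion genes were called in the 3 comparisons, where it called 1.42, 2.31 and 0.107% of all genes. At an unadjusted p under 0.05 there were 16, 14 and 5 companion genes.

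**Figure D5:**
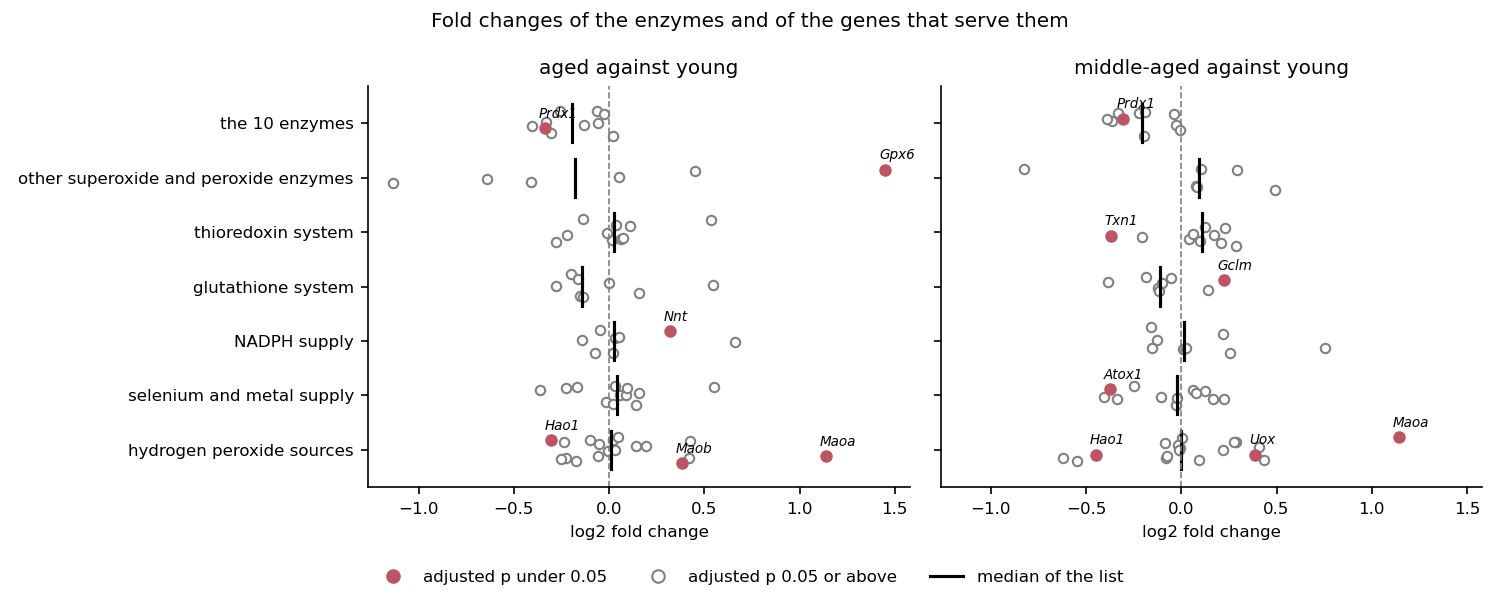
Log2 fold changes against young of the 10 enzymes and of the 6 lists of genes around them, limited to genes averaging 10 or more normalised counts; vertical bars are list medians and filled points have an adjusted p under 0.05. The median of the 10 enzymes lies at -0.19 in aged and -0.21 in middle-aged livers, and Maoa at 1.14 is filled at both ages.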

How the data were processed

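The authors deposited whole-number counts of reads per gene for 12 livers, without normalisation. The submitters' processing notes name STAR 2.5.2b, SAMtools 1.9, featureCounts and mm10 (GRCm38); counting by strand is not given in the sources used here. The study's methods describe RNA preparation for young and old livers only, and its RNA-seq of 3 ages came from a public atlas, so how these libraries were made is uncertain. The design text names 3 replicates per age, whereas 4 samples per age are labelled. The 92 spike-in rows were left out of all tests.

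The 28449 genes with a count entered DESeq2 1.42.0 (R 4.3.3), the tool the study used, with age as the only term, Wald tests for pairs of ages, a likelihood ratio test across ages, Benjamini-Hochberg adjustment and a threshold of 0.05. Alternatives were edgeR 4.0.16 and limma 3.58.1 (both on the 12099 genes passing edgeR's expression filter), other scalings and filters, a replicate block, spike-in sets and leaving out each liver. The scripts were tested on simulated data. Positions and exon lengths came from GENCODE M21.

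All 10 members were named whatever their values, as were Cat, Sod3, Ccs, Txnip and every gene of the companion lists called in a pair of ages. For the 3 members with the lowest p across ages, the 3 most correlated genes were named. Members and lists were chosen with earlier results of these data known.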

Additional observations from a re-analysis of the deposited data

Results flagged for a closer look

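The summed normalised count of the 10 enzymes in young replicate 2 was 66568, far from the other 3 young livers at 58403 to 59401. It was the only one of 33 sets of 4 values, 10 enzymes and their sum at 3 ages, in which the extreme liver stood apart by Dixon's criterion at the 95% level, and chance alone marks about 1 in 20. That liver also had the highest mitochondrial share, 19.2%, and the highest erythroid sum, 86402; their part in the value was not tested.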

How the results depend on the processing

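No fold change of a member that was called in either fit changed sign. Over 750 fold changes of single members, 54 changed sign, all where neither value was called; 15 lost and 16 gained a call. For aged livers against young, middle-aged livers against young and all 3 ages, edgeR called 0, 0 and 0 members, and fits within replicates 1 and 2 called 0, 0 and 0, where each had called 1. The spike-in covariate gave 2 members for aged against young and 2 across ages, and replicates 3 and 4 alone 3 and 2. Using only the livers compared gave 0 for aged and 4 for middle-aged against young, the latter with 11.2% of all genes called. Total-count scaling and the offsets each gave 0 for middle-aged against young, with 8.42 and 5.78% of all genes called. Leaving out a liver gave 0 to 6, 0 to 3 and 1 to 5 members, with 1.77 to 10.5% of all genes called in the first comparison and 2.83 to 9.72% in the second; for the covariate, both spike-in sets and only the livers compared the shares in aged against young were 3.7, 1.24, 4.22 and 2.05%.

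Same-numbered livers came from different animals and their correlations ran from -0.30 to 0.16, so the numbers did not pair them. With a replicate block 0 members were called in middle-aged against young (Prdx1 adjusted p = 0.067). Companion genes called numbered 2 in aged against young, 3 in middle-aged against young and 4 across ages. The shares of all genes called with the block were 2.85% in aged against young and 3.23% in middle-aged against young.

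Companion genes called in the comparisons of aged with young, middle-aged with young, aged with middle-aged and all 3 ages numbered 1, 2, 0 and 2 with edgeR and 3, 3, 1 and 5 with limma, against 5, 6, 2 and 8. The shares of all genes called moved as well. For the 3 pairs of ages they were 1.42, 2.31 and 0.107% with edgeR and 2.94, 5.8 and 0.413% with limma, against 3.58, 6.41 and 1.14%. Replicates 1 and 2 gave 0, 0, 0 and 1, with 1.24, 2.18 and 0.307% of all genes for the pairs of ages. Replicates 3 and 4 gave 8 and 2 for the comparisons of aged and middle-aged with young, with 4.22 and 3.64% of all genes. For aged against young total counts gave 9 (6.06% of all genes), no independent filtering 2 (1.13%) and only the livers compared 1 (2.05%). Using only the livers compared gave 12 for middle-aged against young (11.2%). Leaving out a liver gave 1 to 15, 3 to 10 and, across ages, 4 to 15. In the comparisons of aged and middle-aged with young, 1.77 to 10.5% and 2.83 to 9.72% of all genes were then called. The lowest member count, 541, lay far above the floor of 3 counts, so depth left no member undetected.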
